A study of Mus musculus with 12 samples.

Results

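Cystatins are small proteins that block papain-like cysteine proteases, the class to which most lysosomal cathepsins belong. They do so by wedging a conserved hairpin loop, with a Gln-x-Val-x-Gly core, into the active site cleft of the protease. Microglia take up amyloid and cell debris and degrade them in lysosomes, and the balance of cathepsins and their inhibitors is one of the settings of that degradation. Cst3, Cst7 and Cstb, 3 of the 55487 genes with counts in the data, are described here. They were taken by name as the cystatin inhibitors of microglia. Cst3 encodes cystatin C, a secreted inhibitor found in most tissues. Cst7 encodes cystatin F, made mainly by immune cells and partly kept inside the cell, where it can reach the endolysosomal cathepsins. Cstb encodes cystatin B, or stefin B, an inhibitor of the cytosol and nucleus. All 3 genes passed the filter on low counts, which left 15425 tested genes.

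RNA was sequenced from CD11b-positive cells of the cerebral cortex, collected with antibody-coated magnetic beads after papain digestion, from 12 male mice in 4 groups of 3. The groups were WT mice given PBS, the vehicle, WT mice given rh Bri2 BRICHOS R221E, App NL-G-F mice given PBS and App NL-G-F mice given rh Bri2 BRICHOS R221E. App NL-G-F mice carry knocked-in Swedish, Iberian and Arctic mutations in their own App gene, so that no transgene promoter drives it, and rh Bri2 BRICHOS R221E is a recombinant human chaperone domain with an amino acid exchange. All animals received 24 intravenous injections over 12 weeks from 9 months of age, with 10 mg/kg of the chaperone in the treated groups, and a treatment-free period of 4 weeks followed. CD11b is carried by other myeloid cells besides microglia, and in such bulk samples fewer cells of a type and less RNA per cell cannot be told apart.

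Libraries held between 12433402 and 17889654 counts, and 3 counts in a library were taken as the floor of detection. Levels are given in CPM, which are counts scaled to a common library total with the TMM factors described below. All 8 microglia markers were detected in every group, with summed levels between 24294 and 29143 CPM. Single microglia markers still differed by genotype. Under PBS, 5 of the 8 were called lower and 2 higher with the App NL-G-F genotype. Under treatment, 4 were called lower and 2 higher. Markers of several other cell types also moved with the genotype. For comparison, 20.1% of all tested genes were called higher and 16.9% lower between PBS-treated genotypes. In PBS-treated App NL-G-F against WT mice, 9 of 10 astrocyte markers were higher, and their summed level ran from 1497 to 4625 CPM against 543 to 784. In the same comparison 7 of 7 neutrophil markers were lower, at 13.6 to 35.3 against 34.0 to 378 CPM in sum, as were 6 of 6 markers of border macrophages, at 167 to 224 against 389 to 460 CPM. Lower levels were also called for 5 of 6 endothelial, 4 of 7 neuronal, 2 of 6 oligodendrocyte, 2 of 4 monocyte, 1 of 6 mural and 1 of 5 B cell markers and for 2 of the 3 tested dendritic cell markers. Of 5 tested T and NK cell markers 1 was higher. Between treated genotypes, where 20.8% of all tested genes were called higher and 21.8% lower, 1 of 10 astrocyte markers was higher. There, 6 of 6 choroid plexus markers were lower (646 to 974 against 3263 to 6777 CPM in sum), as were 6 of 6 mural markers (73.6 to 117 against 225 to 300 CPM) and 6 of 6 border macrophage markers. Fewer members of the other lists were lower, with 4 of 7 neutrophil, 5 of 6 endothelial, 5 of 7 neuronal, 3 of 4 monocyte and 4 of 5 B cell markers, 2 of 3 tested dendritic and 4 of 5 tested T and NK cell markers, while the fifth of these was higher. None of the markers in these lists was at 0 in a whole group. The TMM factors, which scale each library for its composition, were 1.05 to 1.10 in the WT libraries and 0.875 to 0.952 in the App NL-G-F libraries, and the median log2 fold change of all genes shifts by -0.19 between PBS-treated genotypes and by -0.27 between rh Bri2 BRICHOS R221E-treated genotypes when they are left out. Changes below are relative to the TMM scale unless another is named.

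The genes lie on 2 chromosomes of the GRCm38 build. Cst3 (ENSMUSG00000027447) spans chr2:148871722-148875692 on the minus strand with 3 exons and a coding length of 420 bases. Cst7 (ENSMUSG00000068129) spans chr2:150570415-150578944 on the plus strand with 4 exons and 432 coding bases. Cstb (ENSMUSG00000005054) spans chr10:78425669-78427622 on the plus strand with 3 exons and 294 coding bases. No other annotated gene overlaps any of the 3 spans on either strand. The stretch of 1694722 bases between Cst3 and Cst7 holds 30 annotated genes, 15 of them protein coding. The coding sequence around the inhibitory loop is shown for each gene, because this loop is the feature that defines the family. Each window holds 60 bases, and the 15 bases in capitals are the 5 codons that match the Gln-x-Val-x-Gly core, with 1 such match per gene.
Cst3: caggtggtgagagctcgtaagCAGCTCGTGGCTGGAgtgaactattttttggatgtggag
Cst7: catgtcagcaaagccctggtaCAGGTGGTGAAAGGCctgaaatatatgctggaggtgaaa
Cstb: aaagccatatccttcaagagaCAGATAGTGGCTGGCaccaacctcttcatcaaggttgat

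The match begins at codon 75 in Cst3, codon 80 in Cst7 and codon 46 in Cstb, counted from the start codon of the GENCODE transcript. Over the 60 bases Cst3 and Cst7 share 34, Cst3 and Cstb share 27, and Cst7 and Cstb share 26. Within the 15 loop bases the closest pair was Cst3 and Cstb with 12 identical bases, against 10 for Cst7 and Cstb and 9 for Cst3 and Cst7.

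The level of Cst3 was high in every library and was not called between any groups on the TMM scale. In PBS-treated WT mice the 3 libraries had 13459, 15027 and 13974 CPM, and in App NL-G-F mice given PBS 13254, 13871 and 13241 CPM. Treated WT mice had 11160, 13546 and 14057 CPM, and treated App NL-G-F mice 13823, 14947 and 13928 CPM. The groups overlapped in each comparison on this scale, and the lowest value of all was that of 1 treated WT mouse. The order of the group means was treated App NL-G-F (14233 ± 621 CPM, SD, n = 3), PBS-treated WT (14153 ± 799), PBS-treated App NL-G-F (13455 ± 360) and treated WT (12921 ± 1546), and no neighbours in that order differed beyond their spread. By TPM, in which counts are divided by the summed exon length of the gene and scaled to the same total in each library, Cst3 ranked first of all genes in each of the 12 libraries.

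**Figure D1:**
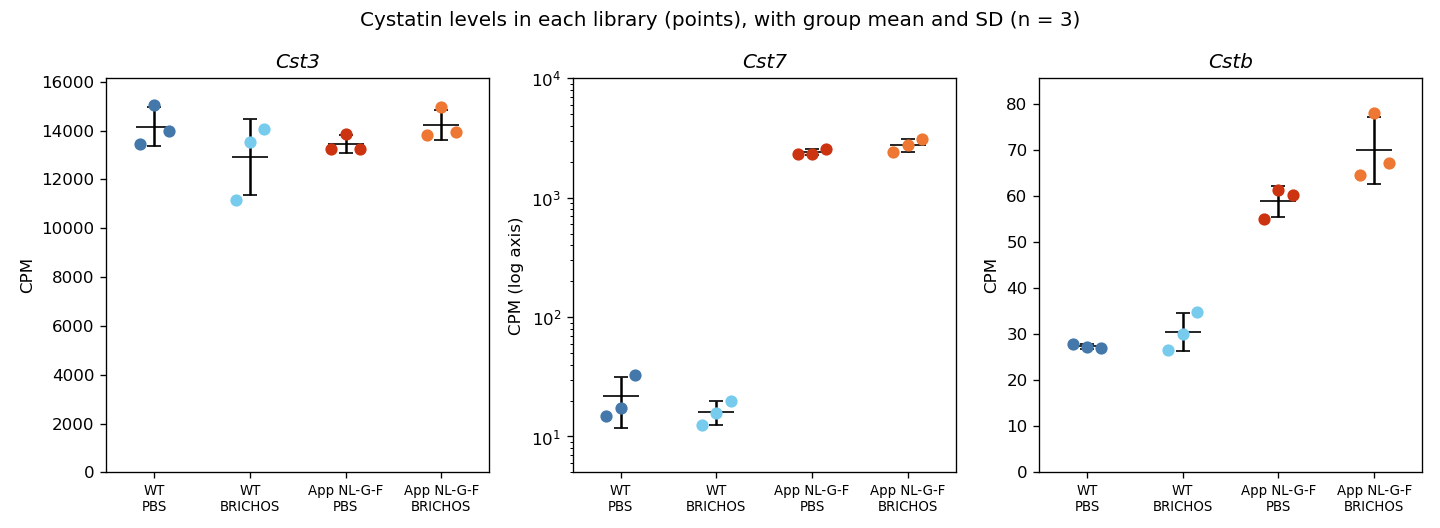
CPM of Cst3, Cst7 and Cstb in each of the 12 libraries (points) by group, with the group mean and SD (n = 3); the Cst7 axis is logarithmic and the other axes start at 0. Cst7 lies between 12.5 and 33.0 CPM in the WT libraries and between 2321 and 3082 CPM in the App NL-G-F libraries, while the Cst3 groups overlap.

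Cst7 was the member with the widest range. Its counts were 218, 290 and 444 in PBS-treated WT libraries against 35889, 35784 and 34654 in PBS-treated App NL-G-F libraries. On the CPM scale these were 14.9, 17.2 and 33.0 against 2321, 2346 and 2565. Every App NL-G-F library was far above every WT library, by a factor much larger than the spread within groups. Treated WT mice had 12.5, 15.8 and 19.8 CPM, and treated App NL-G-F mice 2421, 2757 and 3082 CPM. The treated and PBS-treated libraries of either genotype overlapped. The order of the means was treated App NL-G-F (2753 ± 330 CPM, SD, n = 3), PBS-treated App NL-G-F (2411 ± 134), PBS-treated WT (21.7 ± 9.88) and treated WT (16.1 ± 3.67). The libraries of the genotypes did not overlap, whereas those of neighbours within a genotype did.

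Cstb was a gene of moderate level, with the least spread in PBS-treated WT mice. PBS-treated WT libraries had 28.0, 27.3 and 26.9 CPM, and PBS-treated App NL-G-F libraries 55.0, 61.4 and 60.2 CPM. Treated WT libraries had 26.6, 30.0 and 34.9 CPM, and treated App NL-G-F libraries 64.5, 78.1 and 67.1 CPM. All 6 App NL-G-F libraries were above all 6 WT libraries. Group means were 69.9 ± 7.23 CPM (SD, n = 3) in treated App NL-G-F, 58.9 ± 3.38 in PBS-treated App NL-G-F, 30.5 ± 4.18 in treated WT and 27.4 ± 0.528 in PBS-treated WT mice.

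The first question was how the genotype changed the inhibitors in PBS-treated mice. Cst7 rose 112-fold in App NL-G-F mice (log2 fold change 6.80 ± 0.30 SE, 95% interval of the fold 70.6 to 176, adjusted p = 2.21e-08, edgeR), which placed it 10th among the tested genes ordered by log2 fold change. Cstb rose 2.15-fold (log2 fold change 1.10 ± 0.10 SE, interval 1.84 to 2.51, adjusted p = 6.65e-06). Cst3 had a log2 fold change of -0.07 ± 0.10 SE with an adjusted p of 0.582, and its interval of 0.820 to 1.10 for the fold leaves room for a small difference either way. Thus 2 of the 3 genes were called, both of them higher, while 37% of all tested genes were called and 20.1% were called higher. Cst7 and Cstb also did not overlap between the groups, which held for 50.9% of all tested genes. Without TMM factors the changes were 6.61 for Cst7 and 0.91 for Cstb, and both remained called.

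For Cst3 the scale decided the call. As a share of all counts it was 1.47%, 1.57% and 1.51% in the PBS-treated WT libraries and 1.26%, 1.29% and 1.24% in the PBS-treated App NL-G-F libraries, which did not overlap. The fit on library totals alone gave a log2 fold change of -0.26 ± 0.08 SE (adjusted p = 0.0224, edgeR), whereas the fit with TMM factors gave no call. On library totals alone 5197 of the 15425 tested genes were called lower, against 2611 with TMM factors. Between treated genotypes the sign itself depended on the scale, at 0.14 with TMM factors and -0.13 without them (adjusted p = 0.271 and 0.196), so no direction is given for Cst3. By count alone Cst3 was the top gene of every WT library and the third of every App NL-G-F library.

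The same genotype difference was tested among the treated mice. Here Cst7 rose 171-fold (log2 fold change 7.42 ± 0.31 SE, interval of the fold 107 to 274, adjusted p = 1.2e-08, edgeR) and Cstb rose 2.29-fold (log2 fold change 1.20 ± 0.10 SE, interval 1.97 to 2.67, adjusted p = 2.95e-06). Again 2 of the 3 genes were called, against 42.5% of all tested genes called and 20.8% called higher. Both also showed no overlap between the groups, as did 51.7% of all tested genes.

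The treatment was compared with PBS within each genotype. In App NL-G-F mice none of the 3 genes was called, and 0.00648% of all tested genes were, which is 1 gene. Cstb was higher by a log2 fold change of 0.25 ± 0.10 SE, with an unadjusted p of 0.0274 and an adjusted p of 0.385. Its 3 treated libraries lay above its 3 PBS-treated libraries, a separation seen for 13.5% of all tested genes, and an unadjusted p under 0.05 was reached by 10.8%, in the upward direction by 3.18%. Cst7 had a log2 fold change of 0.19 ± 0.23 SE (interval of the fold 0.806 to 1.62) and Cst3 0.08 ± 0.10 SE (0.913 to 1.23), both with an adjusted p of 0.826. With 1 treated library left out, the value of Cstb ran from 0.17 (without the second) to 0.30 (without the first) and that of Cst7 from 0.10 (without the third) to 0.28 (without the first). The value of Cst3 ran from 0.05 without the second treated library to 0.10 without the second PBS-treated library. These intervals still contain changes of moderate size, so the values do not show that the treatment left the genes as they were. The interval of Cst7 draws on the spread shared with the WT groups, which varied more for this gene. Fitted on the compared groups alone, its change was 0.19 ± 0.10 SE (adjusted p = 0.621, edgeR).

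In WT mice the treatment gave no call for the 3 genes, and 0% of all tested genes were called by edgeR, with 11.4% at an unadjusted p under 0.05 and 80 genes at an adjusted p under 0.05 with DESeq2's Wald test. The log2 fold changes were -0.43 ± 0.26 SE for Cst7 (adjusted p = 0.573), 0.15 ± 0.10 SE for Cstb (0.601) and -0.13 ± 0.10 SE for Cst3 (0.654). The value for Cst7 rested on the third PBS-treated WT library with its 33.0 CPM, and without it the change was -0.0021. The other values also moved with single libraries, for Cstb from 0.05 without the third to 0.24 without the first treated WT library, and for Cst3 from -0.20 without the third to -0.04 without the first. The groups overlapped for all 3 genes, against 17.5% of tested genes without overlap.

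Whether the treatment acted differently in the genotypes was tested as the difference of its effects, for which 0.00648% of tested genes were called. The differences were 0.62 ± 0.35 SE for Cst7 (adjusted p = 0.431), 0.21 ± 0.14 SE for Cst3 (0.502) and 0.09 ± 0.14 SE for Cstb (0.813), and none passed the test. Without the third PBS-treated WT library the Cst7 value was 0.19, and without the first it was 0.83. The Cst3 value was 0.12 without the first and 0.28 without the third treated WT library, and the Cstb value 0.0088 and 0.20 without the same libraries. The plot of fold changes by comparison shows these intervals beside those of the genotype.

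**Figure D2:**
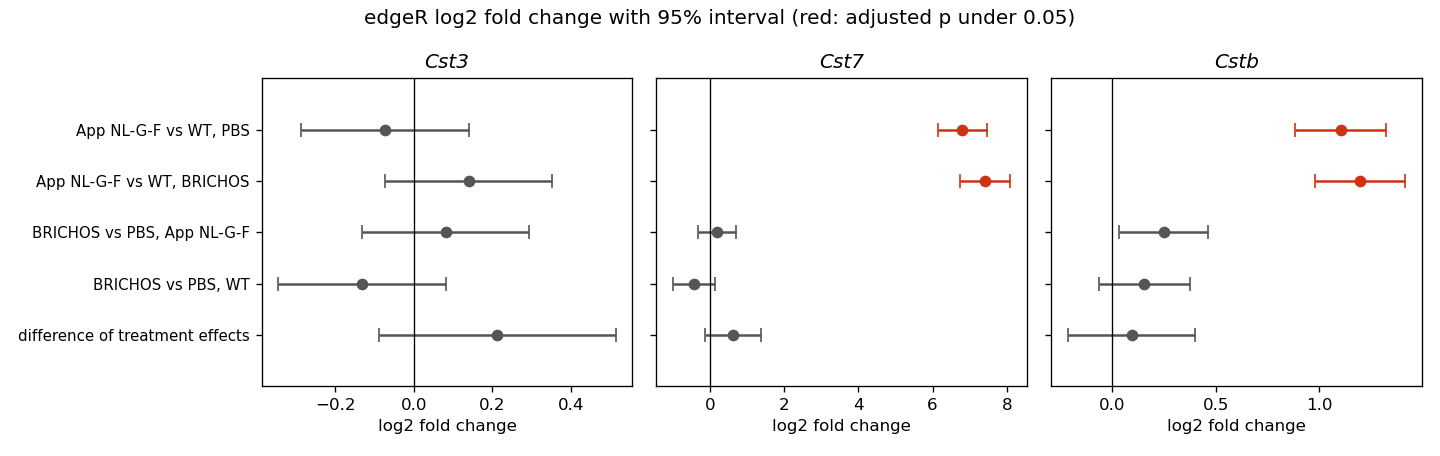
Log2 fold changes with 95% intervals from edgeR for Cst3, Cst7 and Cstb (each panel with its own horizontal scale) in the 5 comparisons listed on the vertical axis, in red where the adjusted p is under 0.05. Calls appear for Cst7 and Cstb in both comparisons of App NL-G-F with WT, and nowhere for Cst3 on this scale.

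Because astrocyte markers moved with the genotype, their mean log2 CPM was also entered in the fit. Between PBS-treated genotypes the log2 fold change was then 7.02 for Cst7 (adjusted p = 1.59e-06), 1.20 for Cstb (adjusted p = 0.00104) and -0.14 for Cst3 (adjusted p = 0.672), as large as without it for the first 2 genes. The part of the other cell types whose markers moved in these results was not tested.

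Per length, the makeup of the inhibitors changed with the genotype more than their sum. The 3 genes together had 41078 ± 1255 TPM (SD, n = 3) in PBS-treated WT, 37670 ± 3152 in treated WT, 38914 ± 382 in PBS-treated App NL-G-F and 39566 ± 1008 in treated App NL-G-F mice. Cst7 made up 0.196% ± 0.0911 and 0.157% ± 0.0198 of that sum in PBS-treated and treated WT mice, and 18.6% ± 1.07 and 19.7% ± 1.97 in the App NL-G-F groups. In WT libraries the TPM of Cst3 was 329 to 703 times that of Cst7, and in App NL-G-F libraries 3.52 to 4.60 times. Cst7 lay below Cstb in every WT library, with a TPM ratio of 0.288 to 0.750, and above it in every App NL-G-F library, with a ratio of 21.6 to 28.1. In rank by TPM among all genes Cst7 moved from between 1159 and 3287 in WT libraries to between 10 and 15 in App NL-G-F libraries, and Cstb from between 612 and 849 to between 379 and 468. TPM here carries no TMM factor and depends on the length chosen for a gene.

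The remaining cystatins were nearly silent. Of 29 further symbols of the cystatin superfamily, 24 were found in the data, 12 had no count in any library and 2 passed the filter on low counts. All 7 other cystatin genes of the Cst3 cluster on chromosome 2 (Cst8, Cst9, Cst10, Cst11, Cst12, Cst13 and Cstl1), several of them known from the reproductive tract, had 0 counts in every library, which allows up to 3 counts in each. Stfa2l1, a stefin A gene of the chromosome 16 cluster, had 3 to 10 counts in PBS-treated WT, 13 to 36 in treated WT, 0 to 6 in PBS-treated App NL-G-F and 1 to 3 in treated App NL-G-F libraries. It passed the filter only through the treated WT group, where its counts were highest, so its test is not reported. Stefin A genes are close copies of each other, so the assignment of reads among them is uncertain, and they are known from neutrophils. Kng2, a kininogen with cystatin-type domains, had 11 to 18 and 15 to 25 counts in the PBS-treated and treated WT libraries, against 4 to 7 and 3 to 9 in those of App NL-G-F mice. It passed the filter only through the WT groups, and its test is not reported either. The untested cystatins with any count reached at most 12 counts in a library (Gm5483).

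Among cysteine protease inhibitors outside the family the changes were smaller than those of Cst7 and Cstb. Between PBS-treated genotypes 2 of 3 were called higher, as were 20.1% of all tested genes. Calpastatin (Cast), the inhibitor of the calpains, rose by a log2 fold change of 0.22 ± 0.06 SE between PBS-treated genotypes (adjusted p = 0.0139, edgeR), from 56.8 to 66.0 CPM. By TPM it went from 18.1 to 17.0, so its direction depends on the scale. Between treated genotypes Cast was not called (0.12 ± 0.06 SE, adjusted p = 0.129, edgeR). Ctla2b encodes a protein like the propeptide of a cathepsin. It rose by 0.78 ± 0.17 SE between PBS-treated genotypes (adjusted p = 0.00373, edgeR), from 2.73 to 4.69 CPM. Between treated genotypes it rose by 0.81 ± 0.17 SE (adjusted p = 0.00229, edgeR). Its near copy Ctla2a had a change of 0.95 ± 0.42 SE between PBS-treated genotypes (adjusted p = 0.0958, edgeR). Reads of these 2 genes may be hard to separate.

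The targets of the inhibitors were followed as a list of 11 genes, 10 cysteine cathepsins and legumain (Lgmn), an asparaginyl endopeptidase that cystatin C and cystatin F can also block. All 11 were tested. Between PBS-treated genotypes 6 were higher and 3 lower in App NL-G-F mice. Over all tested genes 20.1% and 16.9% were called in these directions. The median log2 fold change was 0.50, against -0.02 over all tested genes. Among the lower genes was Ctsk, which reached the minimum of the filter on low counts in every WT library but not in every App NL-G-F library. Counts without Ctsk and Ctsw, also near that minimum, are given below. Ctsl rose most (1.86 ± 0.07 SE, from 814 to 2959 CPM), followed by Ctsb (1.68 ± 0.07, from 3042 to 9754 CPM), both broadly acting lysosomal proteases. Next came Ctsz (1.54 ± 0.08, from 960 to 2790 CPM). Ctsh, an aminopeptidase (0.70 ± 0.08), and Ctss, a protease of antigen presentation (0.50 ± 0.08), rose less.

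Ctsc encodes the dipeptidyl peptidase that activates serine proteases of immune granules and is a known target of cystatin F. It rose by 0.36 ± 0.11 SE (adjusted p = 0.0222, edgeR) with TMM factors, but on library totals alone its change was 0.17 with an adjusted p of 0.16. The TPM ratio of Cst7 to Ctsc was 0.156 to 0.364 in the WT libraries and 19.9 to 30.2 in the App NL-G-F libraries. The lower genes were Lgmn (-0.25 ± 0.06 SE, from 3138 to 2635 CPM), Ctsf (-0.21 ± 0.05, from 198 to 172 CPM) and Ctsk (-1.06 ± 0.35, with 8 to 29 counts in a library). Ctso and Ctsw did not pass the test, at 0.13 ± 0.05 and 1.15 ± 0.50. Both Ctsk and Ctsw were near the minimum of the filter on low counts, 0.619 CPM. Ctsk reached it in every WT library, but in 2 PBS-treated and 1 treated App NL-G-F libraries. Ctsw, with 6 to 52 counts in a library, reached it in every App NL-G-F library, but in 2 libraries of each WT group. Among the 9 genes with a mean above 2 CPM, a limit chosen after the values were seen and which leaves these out, 6 were higher and 2 lower.

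**Figure D3:**
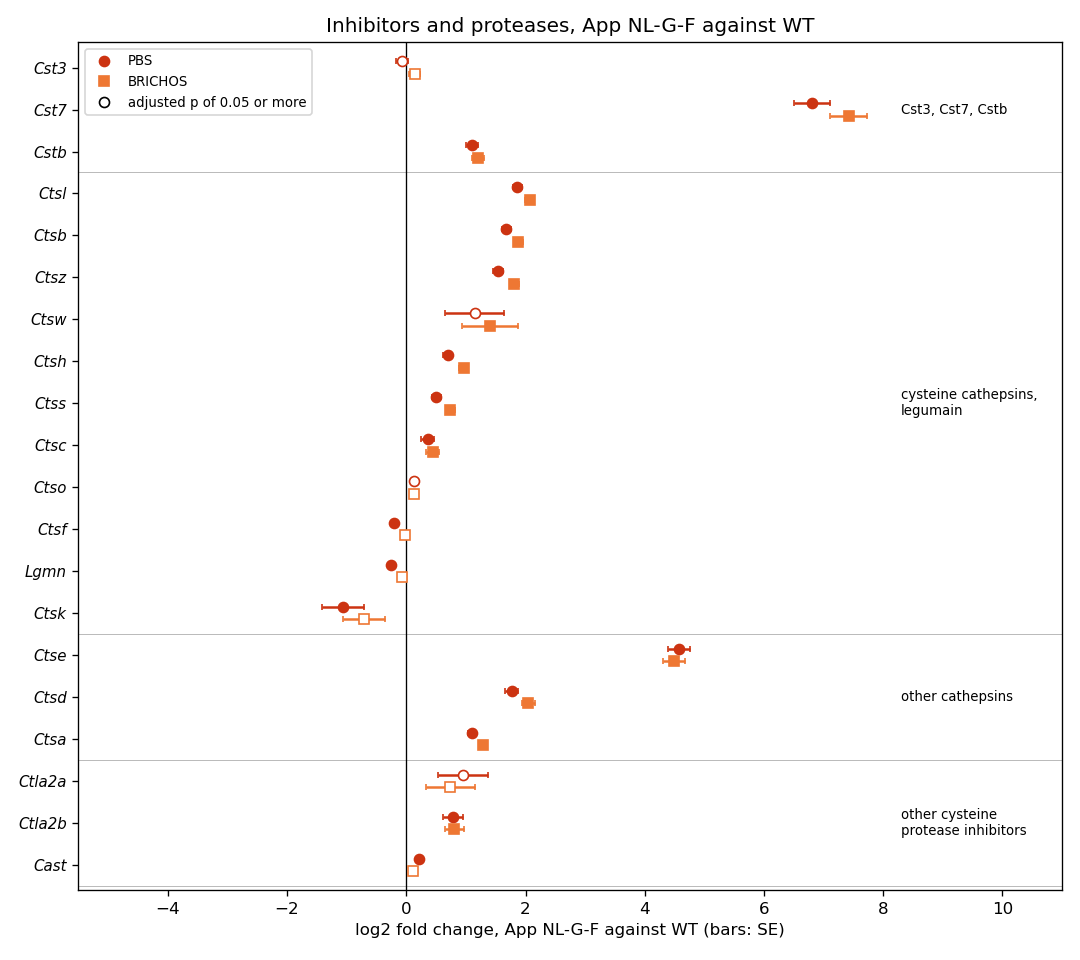
Log2 fold changes of App NL-G-F against WT mice from edgeR, with SE as bars, for the 3 cystatins, the tested cathepsins and legumain, and 3 inhibitors outside the family, in PBS-treated (circles) and rh Bri2 BRICHOS R221E-treated mice (squares), open where the adjusted p is 0.05 or more. Cst7 lies at 6.80 and 7.42, and Ctse, at 4.58 and 4.50, has the next highest values.

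Among treated mice 7 of the 11 proteases were higher in App NL-G-F than WT mice and 0 were lower, where 20.8% and 21.8% of all tested genes were, with a median of 0.74 against -0.04 over all tested genes. On library totals alone 5 were higher and 3 lower, the lower ones being Ctsk, Lgmn and Ctsf, so the calls of these 3 genes among treated mice depend on the scaling. So do those of Ctsc (adjusted p = 0.00691 with TMM factors and 0.153 without) and Ctsw (0.0308 and 0.0577), which were no longer called. Among the 9 genes above 2 CPM, 6 were higher and 0 lower with TMM factors and 5 higher and 2 lower without. Between PBS-treated genotypes library totals alone gave 5 higher and 3 lower among the 11 genes, and 5 higher and 2 lower among these 9. The sign of Ctso turned in both comparisons. Lgmn and Ctsf changed by -0.06 and -0.03 with TMM factors among treated mice, neither of them called. The treatment itself gave 0 calls among the 11 genes in either genotype. In App NL-G-F mice Ctsh (0.20 ± 0.08 SE, adjusted p = 0.37) and Ctsz (0.18 ± 0.08, adjusted p = 0.426) had an unadjusted p under 0.05, which 3.18% of all tested genes reached in the upward direction.

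Of cathepsins with another catalytic mechanism, which cystatins are not known to block, 3 of 4 were tested and all 3 were higher in App NL-G-F mice given PBS, where 20.1% of all tested genes were. Ctsd, the major lysosomal aspartic protease, rose by 1.77 ± 0.11 SE (from 4624 to 15747 CPM), the serine carboxypeptidase Ctsa by 1.10 ± 0.07, and the aspartic protease Ctse by 4.58 ± 0.19, from 1.98 to 47.8 CPM. The neutrophil serine protease Ctsg did not pass the filter, with at most 17 counts in a WT library and 0 counts in every App NL-G-F library.

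Summed over the 11 cysteine cathepsin and legumain genes the level per length was 26887 ± 765 TPM (SD, n = 3) in PBS-treated WT, 25044 ± 191 in treated WT, 34856 ± 476 in PBS-treated App NL-G-F and 35880 ± 680 in treated App NL-G-F mice. The sum of the proteases was higher in every App NL-G-F library than in every WT library. By TPM the sum of the 3 cystatins was lower in the PBS-treated App NL-G-F libraries (38596 to 39338 TPM) than in the PBS-treated WT libraries (39902 to 42399 TPM), without overlap, and overlapped between treated genotypes (38697 to 40670 against 34039 to 39695 TPM). As a share of counted reads this sum overlapped between PBS-treated genotypes, at 1.48% to 1.51% in App NL-G-F and 1.47% to 1.58% in WT libraries. The lower sum therefore rests on the scale, and no direction is given for it. Ctss held the largest part of the protease sum in every group, with 16348 TPM in PBS-treated WT and 18743 TPM in App NL-G-F mice given PBS.

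**Figure D4:**
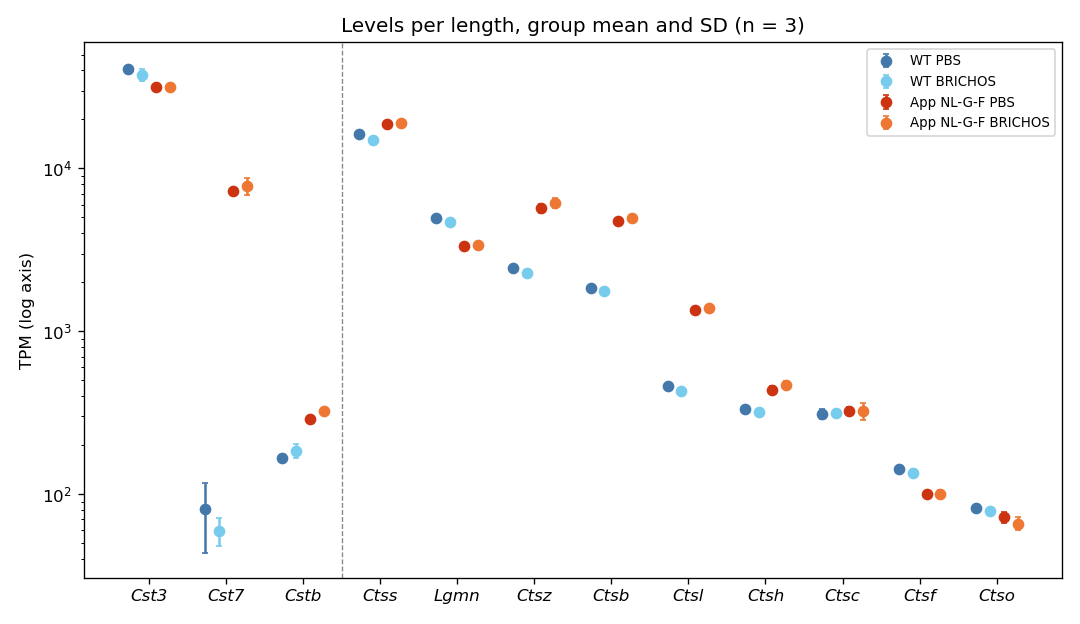
Mean TPM and SD (n = 3, log axis) of the 3 cystatins (left of the dashed line) and of the cysteine cathepsins and legumain in the 4 groups; Ctsk and Ctsw, under 4 TPM in each group, are not drawn. Cst7 moves from 80.6 TPM in PBS-treated WT to 7223 TPM in App NL-G-F mice given PBS, past all proteases drawn but Ctss.

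For comparison with the microglial states, lists of 14 genes of disease-associated microglia and 12 homeostatic genes were measured in the same fit. All 14 disease-associated genes rose between PBS-treated genotypes, with a median log2 fold change of 3.49, led in level by Apoe, which carries lipid and rose from 1773 to 19998 CPM. In that comparison the change of Cst7 (6.80) was near those of Gpnmb, a lysosomal membrane glycoprotein (7.05 ± 0.69 SE), and Spp1, a secreted matrix protein (5.96 ± 0.47). That of Cstb (1.10) was near that of B2m (1.04 ± 0.08). Gpnmb had 26.9 CPM in the third PBS-treated WT library, against 3.42 and 4.15 CPM in the others. Between treated genotypes the changes were 7.42 for Cst7, 8.90 ± 0.76 SE for Gpnmb and 6.69 ± 0.49 SE for Spp1. There Cstb had 1.20 and B2m 1.21 ± 0.08 SE. Of the 12 homeostatic genes 9 fell between PBS-treated genotypes, with a median of -0.50 over the list.

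The genes whose log2 CPM followed each member most closely over the 12 libraries were found by Pearson correlation, as a description. For Cst7 they were Itgax (r = 0.9986), Egln3, Serpine2, Yipf7 and Siglecf, and 147 tested genes had r above 0.99, since the 2 genotypes form 2 separate clusters of libraries. For Cstb they were Akr1a1 (r = 0.9925), Ndufa1, Hcar2, Tmsb10 and Cyba. Cst3 had looser company, with Arpc4 (r = 0.92), Fam104a, Rhoa, Adam15 and Gpatch3.

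After the group means were subtracted, so that only differences between mice of a group remained, other genes came first. They were Prelid1 (r = 0.9688), Mif, Ndfip1, Manf and Ndufa3 for Cst3, Il13ra1 (r = 0.9568), Perp, Baiap2l2, 1110017D15Rik and Atp5g1 for Cst7, and Gt(ROSA)26Sor (r = 0.9621), Phf23, Erf, Rasgef1a and Mllt11 for Cstb. Among the members themselves r was 0.97 for Cst7 and Cstb over the 12 libraries and 0.32 after the group means were subtracted, while for Cst3 and Cstb it was 0.28 before and 0.76 after. With 12 libraries that share depth and composition these values are descriptions only.

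The 250 bases before the RefSeq start of Cst7 are shown because this gene had the largest change of the 3. They lie at chr2:150570165-150570414 of GRCm38.p6 and are written along the plus strand. They were searched on both strands for GGAAGT, the core bound by ETS factors such as the myeloid factor PU.1, for CACGTG, an E-box, and for TGANTCA, the AP-1 site. Capitals mark the only match.
Cst7: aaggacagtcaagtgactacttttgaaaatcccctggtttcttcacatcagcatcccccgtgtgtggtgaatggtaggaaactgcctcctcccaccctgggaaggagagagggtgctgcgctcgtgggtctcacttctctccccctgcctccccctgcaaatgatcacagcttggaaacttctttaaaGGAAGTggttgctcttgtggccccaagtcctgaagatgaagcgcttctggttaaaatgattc

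The match is GGAAGT, beginning 62 bases before the start. Such a core stood in 19.7% of the 32851 RefSeq windows of the same length, CACGTG in 6.02% and TGANTCA in 6.75%. The corresponding window of Cst3 held none of the 3 motifs. A match of this kind is a description of the letters and not of a bound site.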

How the data were processed

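Per the labels and methods, the authors trimmed reads of stranded mRNA libraries, mapped them with STAR to GRCm38, obtained read counts per gene from featureCounts 1.5.1 and deposited raw counts without normalization; the strand setting and the handling of shared reads are not given in the sources used here. Libraries were grouped by genotype and treatment. Genes, lists and tests were chosen with earlier results of these data known. In R 4.3.3, edgeR 4.0.16 was run with filterByExpr (minimum count 10), TMM factors and a quasi-likelihood fit over all 12 libraries, with Benjamini-Hochberg adjustment over 15425 genes and calls at 0.05. CPM uses TMM factors, log2 CPM a prior count of 2, and TPM the union exon length of GENCODE vM21. Intervals cover 95% with residual spread shared across groups. Each library is another mouse. On simulated counts for PBS-treated genotypes over 15425 genes, 182 of 200 genes changed 4-fold were found, with 7 false calls. Only these 200 genes, raised and lowered in equal number, differed there. A shift in composition like that between the genotypes was not simulated. Named genes were the 3 cystatins, the genes of the inhibitor and protease lists, up to 4 of highest mean level per marker or state list and the 5 most alike per member; Gpnmb, Spp1 and B2m were named after their values were seen. Alternatives were DESeq2 1.42.0, edgeR with other size factors, samples or filters, the replicate block, the astrocyte score, and the omission of each library; library totals alone were added after the data were seen. Sequences come from GENCODE transcripts and RefSeq (GRCm38.p6). A gene that the naming rule also takes is not reported here.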

Additional observations from a re-analysis of the deposited data

How the results depend on the processing

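The calls of Cst7 and Cstb between genotypes held under every alternative. Of 324 pairs of a member's result and an alternative, 322 kept the call and direction. The others concern Cst3 on library totals alone, chosen after the data were seen, with -0.26 (adjusted p = 0.0224) between PBS-treated genotypes and -0.13 in place of 0.14 between treated genotypes. On that scale the share of called genes that were higher was 27.8% in place of 54.3% between PBS-treated and 18.6% in place of 48.8% between treated genotypes. With each library left out in turn, the log2 fold change of Cst7 ran from 6.59 to 7.23 with PBS and 7.27 to 7.60 with treatment, and that of Cstb from 1.07 to 1.15 and from 1.11 to 1.31. Numbers of called genes moved more. Treatment in App NL-G-F mice called 1 gene, against 116 with DESeq2 on all libraries, 56 with DESeq2 and 0 with edgeR on the compared groups, 25 without a filter, 0 with the astrocyte score, 0 on library totals and 0 to 162 with a library left out, 162 of them without the third PBS-treated App NL-G-F library. In WT mice it called 0, against 80 and 135 with DESeq2 on all or the compared groups, 12 without a filter, 1 on library totals and 0 to 5 with a library left out (5 without the first treated WT library). For the difference of treatment effects 1 gene became 239 with DESeq2, 107 without a filter, 0 with the astrocyte score and 0 to 88 with a library left out (88 without that same App NL-G-F library, 62 without the third PBS-treated WT library), and DESeq2 on the compared groups is there the same fit as on all. Between PBS-treated genotypes 5710 became 2069 with the astrocyte score. The cause of these moves was not tested.

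Replicate numbers 1 to 3 recur in each group, but equally numbered libraries did not deviate together in every pair (correlations -0.01 to 0.23), and each is another mouse. A replicate block changed no member's call (Cst7 6.86 and 7.44, Cstb 1.10 and 1.20 between genotypes) and gave 0 called genes for treatment in App NL-G-F mice. With the block and the astrocyte score together there were 2046 calls between PBS-treated genotypes, 2 for treatment in WT mice, 0 for treatment in App NL-G-F mice and 0 for the difference of effects. With the length of the longest transcript in place of the union of exons, the TPM of Cst3 in PBS-treated WT mice was 46903 and that of Cst7 in App NL-G-F mice given PBS 5646. By Spearman correlation the 5 genes most like a member shared 1 with the Pearson list for Cst3, 0 for Cst7 and 0 for Cstb.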

Other observations

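The third PBS-treated WT library, with the highest Cst7 level of the WT mice, also had the highest level of the 3 PBS-treated WT libraries for 12 of the 14 disease-associated microglia genes. Some of these differences were small, as for Tyrobp (783 against 744 and 782 CPM). The share of all tested genes that were highest in this library was not counted. The level of Gpnmb in this library was 26.9 CPM, against 3.42 and 4.15 CPM in the other PBS-treated WT libraries. Spp1, with 48.6 CPM there, was at 20.7 and 26.8 CPM. Levels of these genes in App NL-G-F libraries were far higher, and the part of this library's state in the Cst7 values was not tested.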
